A study of Mus musculus with 6 samples.

Results

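The genes described here encode the proteasome, and they were taken as every row of the deposited expression table that is annotated as protein-coding and whose gene name starts with Psma, Psmb, Psmc, Psmd or Psme. This rule found 45 of the 24935 rows in the table, which holds 16996 protein-coding rows. By the known place of their products, 19 belong to the core particle, 20 to the regulatory particle and 5 to the activators that can cap the core instead. The 20 include Psmd5, Psmd9 and Psmd10, which encode assembly chaperones of that particle and not subunits of it. The remaining match, Psmc3ip, shares only the letters of its name, since it encodes a factor of meiotic recombination, and it was kept apart.

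C57BL/6 mouse pups and their dams were kept in room air or in 85% oxygen from postnatal day (P) 2 to P14, and RNA of the left hippocampus taken at P14 was sequenced, with 3 libraries in each group. The labels name no transgene or deletion in either group, and the study used pups of both sexes, but the labels do not give the sex or litter of any mouse. A column of the table names its group and a number of 1, 2 or 3 but no animal, so each column was taken as a replicate of its group, and every direction below follows the column names, which no measurement here could check independently. The study asked how neonatal hyperoxia changes receptors and signaling pathways of the hippocampus that memory needs, and it measured protein as well as RNA. It reported that protein and RNA did not always change alike. The comparison here covers proteasome transcripts only and does not show proteasome protein or activity.

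The libraries held between 30384052 and 38746972 reads on genes. The first principal component of all genes held 52.7% of the variance and separated the groups, and the second, with 19.5%, had hyperoxia libraries 2 and 3 at its ends. Of 8 hippocampal neuron markers, which include Zbtb20, Prox1 and Neurod6, all were detected in each library, and their summed level was 51313 to 54658 in air and 32983 to 49941 in hyperoxia, with 4 called lower. Markers of oligodendrocytes were lower, with 7 of 8 called and a summed level of 217460 to 330442 in air against 149240 to 182288 in hyperoxia. Of 6 thalamic markers 4 were called higher, and all 6 together summed to 3466 to 3695 in air and 5595 to 6835 in hyperoxia. General neuronal markers summed to 201094 to 205440 in air and 205410 to 214863 in hyperoxia, with 3 of 8 called higher and 3 lower. Of 8 markers each, 4 endothelial ones were called higher and 2 lower, and 2 astrocytic ones higher and 2 lower. Choroid plexus markers summed to 8296 in hyperoxia library 3 and to 498 to 1435 in the other libraries, with 1 of 8 called higher, and of 5 blood markers 1 was called higher and 1 lower. Over all genes tested, 14.9% were called higher and 15.6% called lower. The part of all these markers in the results below was not tested, and in bulk tissue fewer cells of a type and less RNA per cell cannot be told apart.

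The proteasome is the barrel-shaped protease that degrades proteins tagged with ubiquitin in the cytosol and nucleus. Its core particle is built of rings of alpha subunits, which gate the entrance, around rings of beta subunits, of which Psmb5, Psmb6 and Psmb7 cut the protein chain. The regulatory particle docks on the alpha ring, and its base unfolds the substrate with a ring of ATPases while its lid removes the ubiquitin chain. In neurons the proteasome is known for its part in turnover of synaptic proteins and in clearing oxidized proteins.

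Proteasome transcripts moved in both directions, with more of them lower than higher in hyperoxia. Of the 44 members that could be tested, 14 were called, meaning an adjusted p under 0.05 in limma across all genes, and 11 of these fell while 3 rose. Across all 17778 genes tested 30.5% were called, with 14.9% called higher and 15.6% called lower, so the share of members called in either direction, 31.8%, was near the background, while 6.82% of the members were called higher and 25.0% called lower. The median log2 fold change, hyperoxia minus air, was -0.13 over the members and -0.01 over all genes tested, and 30 of the 44 members had a negative value. The values of the groups did not overlap for 14 of the 44 members that were lower and 3 that were higher. Of the 17778 genes tested, 4238 were lower and 3959 higher without overlap, which is 46.1% in either direction. The member not tested was Psme2b, whose mean was under 10 normalised counts. Psma8 and Psmb11, counted above as negative and as lower without overlap, reached that mean only through their air values. Here a normalised count is the number of reads on a gene divided by the size factor of its library.

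**Figure D1:**
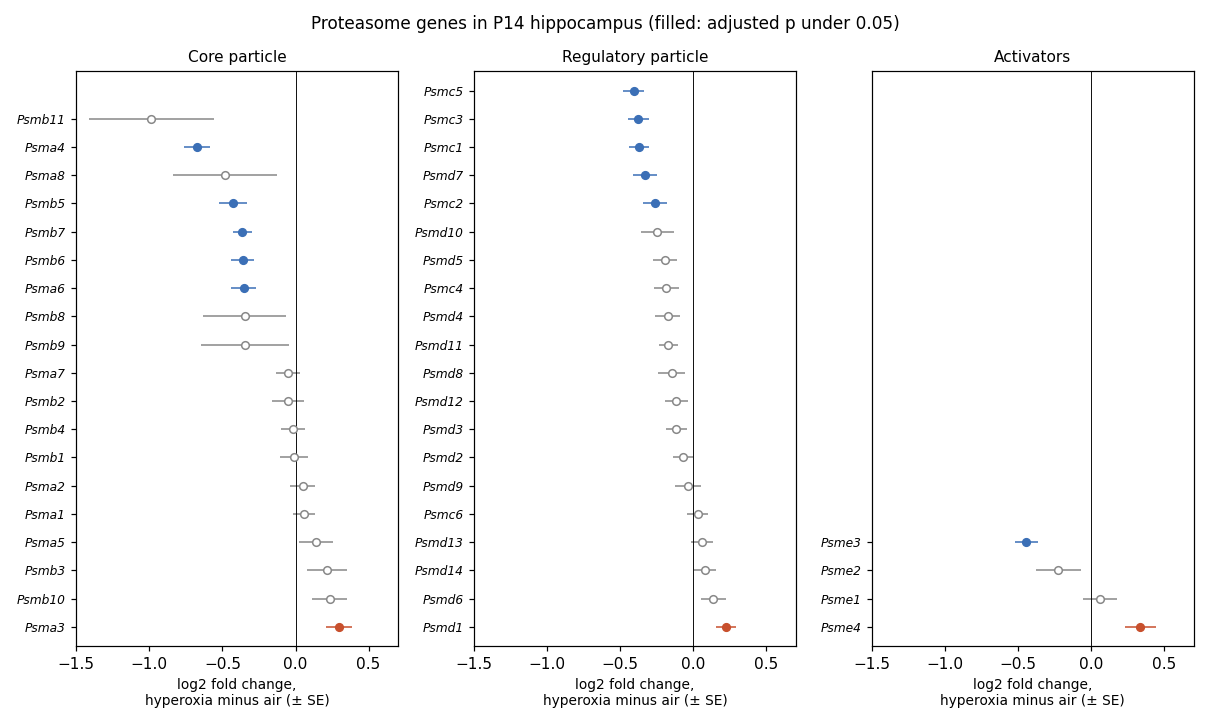
Log2 fold change, hyperoxia minus air, of the tested proteasome genes other than Psmc3ip, with a panel each for the core particle, the regulatory particle and the activators; the bars are standard errors and filled points have an adjusted p under 0.05. The 5 called core genes that fell and the 5 called regulatory genes that fell lay between -0.67 and -0.26, and the 3 called genes that rose lay between 0.22 and 0.34.

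The core and the regulatory particle had a like share of calls. In the core 1 gene rose and 5 fell of 19, with a median log2 fold change of -0.05, and in the regulatory particle 1 rose and 5 fell of 20, with a median of -0.16. The order of these medians turned with the correction for length and GC content described below, to -0.07 for the core and -0.04 for the regulatory particle. With a minimum mean of 50, which leaves out the low genes, the core median was -0.02 and that of the regulatory particle -0.16. Among the activators 1 rose and 1 fell of 4 tested, with a median of -0.08. Within the particles, all 3 constitutive catalytic subunits and 4 of 6 ATPases fell, whereas none of the other 4 constitutive beta subunits and 1 of the 8 lid subunits that the name rule covers did. Over all genes tested, 15.6% were called lower and 14.9% called higher. No test was made of the difference between the shares of these groups of subunits. The normalised counts of the core genes summed to 32403, 33692 and 30462 in air libraries 1 to 3 and 28223, 32288 and 29100 in hyperoxia libraries 1 to 3, so the groups overlapped. The regulatory genes summed to 59928, 60688 and 57195 in air and 51191, 56388 and 51871 in hyperoxia, without overlap, but as a share of all counts of its library the sum of hyperoxia library 2 lay within the range of the air group. The activator genes summed to 8005, 7849.7 and 7399 in air and 6744, 6934 and 6841 in hyperoxia, and these groups overlapped neither in the sums nor in the shares. Among single genes tested, 46.1% did not overlap between the groups, in either direction. Psme3 held the largest part of these sums, with means of 4996 in air and 3674 in hyperoxia. Psme4 rose, from a mean of 1572 to 1997, and Psme1 and Psme2 were not called.

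All 3 constitutive catalytic subunits of the core fell in hyperoxia, beside 15.6% of all genes tested that were called lower. Psmb5 carries the chymotrypsin-like activity, Psmb6 the caspase-like activity and Psmb7 the trypsin-like activity. Psmb5 (ENSMUSG00000022193.6; chr14:54614119-54618022, minus strand, GRCm38) measured 1128, 1204 and 1019 in air libraries 1 to 3 and 766, 826 and 897 in hyperoxia libraries 1 to 3 (normalised counts). The lowest air library was above the highest hyperoxia library, with a log2 fold change of -0.43 (SE 0.09, limma adjusted p = 0.0084). Psmb6 (ENSMUSG00000018286.6; chr11:70525367-70527858, plus strand) measured 3064, 2877 and 2701 in air libraries 1 to 3 and 2122, 2431 and 2169.8 in hyperoxia libraries 1 to 3. Here too the groups did not overlap, with a log2 fold change of -0.36 (SE 0.08, limma adjusted p = 0.00944). Psmb7 (ENSMUSG00000026750.6; chr2:38588036-38644087, minus strand) measured 2122, 2157 and 2081 in air libraries 1 to 3 and 1672, 1608 and 1662 in hyperoxia libraries 1 to 3. Its replicates lay closest together of the 3 genes, at 2120.0 ± 38.2 in air and 1647 ± 34.5 in hyperoxia (SD, n = 3), and it showed a log2 fold change of -0.36 (SE 0.07, limma adjusted p = 0.00379). On the linear scale the mean of hyperoxia differed from that of air by -25.7% for Psmb5, -22.2% for Psmb6 and -22.3% for Psmb7. The call of Psmb6 was lost without air library 1 (limma adjusted p = 0.0537), and that of Psmb5 when transcript length and GC content were corrected for (limma adjusted p = 0.0916).

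The promoters shown, of Psmb5, Psmb6, Psmd9 and Psme4, hold the core of the antioxidant response element within 90 bases before the start. Transcription factors of the Nrf family bind to this element, which is known from some proteasome genes. The motif searched was TGACNNNGC on both strands, in the window from 250 bases before to 50 bases after the RefSeq start of each gene, with GRCm38.p6 as the build. Of the 38 members with such a window, 6 held it (15.8%), beside 14.0% of the 27025 genes with a window, so the share was near that of all genes. Besides Psmb5 and Psmb6, which fell, these were Psme4, which rose, and Psmd9, Psmc6 and Psmd12, which were not called. In Psmc6 and Psmd12 the motif lay 227 and 247 bases before the start, and their promoters are not shown. Psma8, Psmb1, Psmb2, Psmb7, Psmc3, Psmd3 and Psmd7 had no entry. A match of letters is a description and no evidence of binding. Each sequence runs 5′ to 3′ on the strand of its gene, from 90 bases before to 10 bases after the start, and the capitals mark the motif, which in Psme4 lies on the other strand.
Psmb5 (chr14:54617986-54618085, minus strand, motif 47 bases before the start): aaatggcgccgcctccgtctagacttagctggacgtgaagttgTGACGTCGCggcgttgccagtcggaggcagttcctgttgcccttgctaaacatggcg
Psmb6 (chr11:70525267-70525366, plus strand, motif 9 bases before the start): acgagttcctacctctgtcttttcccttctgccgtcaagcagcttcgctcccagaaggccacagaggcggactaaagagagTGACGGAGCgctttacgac
Psmd9 (chr5:123228100-123228199, plus strand, motif 31 bases before the start): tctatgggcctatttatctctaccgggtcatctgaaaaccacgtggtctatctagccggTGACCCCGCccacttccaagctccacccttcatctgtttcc
Psme4 (chr11:30771685-30771784, plus strand, motif 7 bases before the start): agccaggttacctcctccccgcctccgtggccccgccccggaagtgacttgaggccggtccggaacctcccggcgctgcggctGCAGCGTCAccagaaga

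The inducible counterparts of the catalytic subunits were not called. Psmb8, Psmb9 and Psmb10 are the immunosubunits, which interferon induces and which replace Psmb5, Psmb6 and Psmb7 in newly built core particles. Psmb8 (chr17:34197721-34201454, plus strand) was low, at 42.4, 21.4 and 30.8 in air libraries 1 to 3 and 23, 23.8 and 24.1 in hyperoxia libraries 1 to 3 (normalised counts). The 3 hyperoxia libraries lay within the range of the air libraries, and the 95% interval of the log2 difference, -0.98 to 0.28, held 0 (log2 fold change -0.35). Psmb9, its neighbour at chr17:34181987-34187764, minus strand, measured 19.8, 37.7 and 22.6 in air libraries 1 to 3 and 17.7, 20.4 and 22.2 in hyperoxia libraries 1 to 3. The groups overlapped again, with a log2 fold change of -0.34 (SE 0.30, limma adjusted p = 0.409) and an interval of -1.02 to 0.33. Psmb10 (chr8:105935735-105938444, minus strand) was the only immunosubunit at a higher level, at 572, 554 and 502 in air libraries 1 to 3 and 603, 757 and 565 in hyperoxia libraries 1 to 3. Hyperoxia libraries 1 and 2 were above all air libraries and library 3 within their range, and the log2 fold change of 0.23 had an interval of -0.03 to 0.50 (limma adjusted p = 0.166). With the correction for length and GC content Psmb10 was called higher, at 0.43 (limma adjusted p = 0.00233), the single setting that called it.

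Within each library, every inducible subunit was set against the constitutive subunit it replaces, and the ratio of Psmb10 to Psmb7 was higher in hyperoxia. Per kilobase of the longest coding transcript, the Psmb10 level was 23.8%, 22.7% and 21.3% of the Psmb7 level in air libraries 1 to 3 and 31.9%, 41.7% and 30.1% in hyperoxia libraries 1 to 3. Every hyperoxia library was above every air library, with a log2 difference of 0.60. Psmb7 itself was called lower (log2 fold change -0.36), whereas Psmb10 was not called (0.23). The exact two-sided permutation test gave p = 0.1, which is the smallest p that 3 against 3 libraries allow, and 0.3 after Benjamini-Hochberg adjustment over the 3 ratios, so the design could not pass 0.05. Psmb8 stood at 1.57% ± 0.553 of Psmb5 in air and 1.58% ± 0.0856 in hyperoxia (SD, n = 3, exact permutation p = 1). Psmb9 stood at 0.549% ± 0.202 of Psmb6 in air and 0.530% ± 0.0639 in hyperoxia (SD, n = 3, exact permutation p = 0.9). In all 6 libraries the constitutive subunit was the more abundant transcript of each pair. Psmb7 shares 405 exonic bases with Nek6 on the other strand, and whether strand was used in the counting is not stated.

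**Figure D2:**
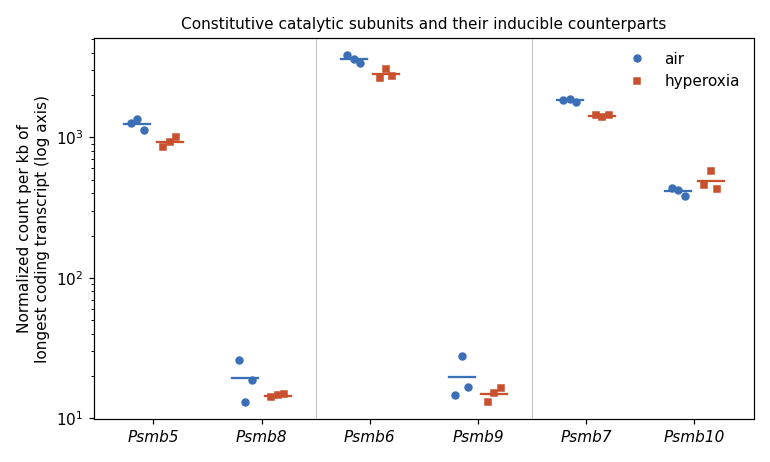
Normalised count per kilobase of the longest coding transcript (log axis) of each constitutive catalytic subunit beside the immunosubunit that replaces it; each point is a library (3 in air, 3 in hyperoxia) and each line is a group mean. Psmb5, Psmb6 and Psmb7 were lower in every hyperoxia library, Psmb8 and Psmb9 were the lowest of the 6 genes in every library, and Psmb10 overlapped between the groups.

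Alpha subunits, which form the outer rings of the core, went in different directions, and 2 fell, 1 rose and 4 were not called. Over all genes tested, 15.6% were called lower and 14.9% called higher. Psma4 showed the smallest p of all members, with 4107, 3708 and 3507 in air libraries 1 to 3 and 2219.6, 2280.2 and 2594 in hyperoxia libraries 1 to 3 (normalised counts). No hyperoxia library reached the lowest air value, and the mean of hyperoxia differed from that of air by -37.3%, with a log2 fold change of -0.67 (SE 0.09, limma adjusted p = 0.00102). Psma6 measured 2288, 2102 and 2067 in air libraries 1 to 3 and 1698, 1827 and 1529 in hyperoxia libraries 1 to 3, without overlap, and fell by 0.36 on the log2 scale (SE 0.09, limma adjusted p = 0.0126). The call of Psma6 was lost without air library 1 (limma adjusted p = 0.0672). Psma3 was the only core gene that rose, at 2126, 2609 and 2250.4 in air libraries 1 to 3 and 2715, 3032 and 2823 in hyperoxia libraries 1 to 3. The highest air value, in library 2, came close to the lowest hyperoxia value, in library 1, and the gene showed a log2 fold change of 0.30 (SE 0.09, limma adjusted p = 0.0319). That call was lost under 5 of 16 alternatives, among them without air library 1, air library 3 or hyperoxia library 1, with adjusted p up to 0.138. Psma3 has a processed pseudogene, Gm13835, that matches it fully over 665 bases and averaged 39.4 normalised counts. Psma1 (0.06, adjusted p = 0.592), Psma2 (0.05, adjusted p = 0.691), Psma5 (0.14, adjusted p = 0.397) and Psma7 (-0.05, adjusted p = 0.649) were not called, with the log2 fold change and the limma adjusted p of each in parentheses.

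None of the constitutive beta subunits without catalytic activity was called. These build the walls of the inner rings, and their log2 fold changes were -0.01 for Psmb1, -0.05 for Psmb2, 0.22 for Psmb3 and -0.02 for Psmb4, with limma adjusted p from 0.25 to 0.938. The 95% intervals were -0.22 to 0.20 for Psmb1, -0.29 to 0.19 for Psmb2 and -0.20 to 0.17 for Psmb4. Each of these intervals lay above the log2 fold changes of Psmb5, Psmb6 and Psmb7. The intervals of those catalytic genes were -0.64 to -0.22, -0.54 to -0.18 and -0.51 to -0.22, and all of them overlapped that of Psmb2. The difference itself was not tested. Psma8, known from the testis, and Psmb11, known from the thymus, were barely detected, with means of 13.1 and 14.4 normalised counts in air. Both were lower in every hyperoxia library, with log2 fold changes of -0.48 and -0.99, and neither was called (limma adjusted p = 0.331 and 0.107). Their means in hyperoxia, 8.86 and 6.26, were under the minimum of 10. They were tested only through their air values, so the filter itself favours a lower value in hyperoxia.

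In the regulatory particle, 4 of the 6 genes of the ATPase ring fell, beside 15.6% of all genes tested that were called lower. The ring lies at the base of the particle and unfolds the substrate and threads it into the core. Psmc1, Psmc2, Psmc3 and Psmc5 were called lower, whereas Psmc4 (log2 fold change -0.19, limma adjusted p = 0.129) and Psmc6 (0.03, limma adjusted p = 0.766) were not. Psmc5 measured 3867, 4018 and 3637 in air libraries 1 to 3 and 2777, 3076 and 2834 in hyperoxia libraries 1 to 3 (normalised counts). The groups were far apart relative to their spread, with a log2 fold change of -0.41 (SE 0.07, limma adjusted p = 0.00371). Psmc1 measured 4352, 4180.3 and 4025 in air libraries 1 to 3 and 3149, 3370.4 and 3191 in hyperoxia libraries 1 to 3, and its groups did not overlap, with a log2 fold change of -0.37 (SE 0.07, limma adjusted p = 0.00397). Psmc3 measured 5408, 5521 and 5026 in air libraries 1 to 3 and 3964, 4359.9 and 3974 in hyperoxia libraries 1 to 3, again without overlap, and showed a log2 fold change of -0.38 (SE 0.07, limma adjusted p = 0.00505). The means of these 3 ATPases differed from air by -24.6%, -22.7% and -22.9%, close to the changes of the catalytic subunits of the core. Psmc2 averaged 2948 ± 208 in air and 2457 ± 193 in hyperoxia (SD, n = 3), and hyperoxia library 2, at 2679.8, came close to air library 3, at 2709, with a log2 fold change of -0.26 (SE 0.08, limma adjusted p = 0.0402). Its call was lost under 6 of 16 alternatives, among them without air library 1 or 2 or hyperoxia library 1 or 3, with adjusted p up to 0.155. In air, per kilobase of the longest coding transcript, the ATPases ranged from 957 for Psmc6 to 2924 for Psmc3, and Psmc5 stood next to Psmc3 at 2919.

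Of the other members in the base and the lid, 1 rose and 1 fell, beside 14.9% and 15.6% of all genes tested. Of the 3 base subunits without ATPase activity, Psmd1, the large scaffold on which the ubiquitin receptor Adrm1 docks, rose, with 2482, 2615 and 2641 in air libraries 1 to 3 and 3042, 2838 and 3155 in hyperoxia libraries 1 to 3 (normalised counts). Its groups did not overlap and it showed a log2 fold change of 0.22 (SE 0.07, limma adjusted p = 0.0394), but the call was lost under 7 of 16 alternatives, including the omission of any library other than hyperoxia library 2, with adjusted p up to 0.151. Psmd2, the other scaffold, and Psmd4, a ubiquitin receptor, were not called, with log2 fold changes of -0.07 and -0.18 (limma adjusted p = 0.44 and 0.148). Among the 8 lid members Psmd7 fell, the partner of the deubiquitinating enzyme Psmd14. Psmd7 measured 3916, 3871 and 3579.9 in air libraries 1 to 3 and 2815, 3309 and 2916 in hyperoxia libraries 1 to 3, with no overlap and with a log2 fold change of -0.33 (SE 0.08, limma adjusted p = 0.0134), and it lost the call without air library 1, air library 2 or hyperoxia library 1, with adjusted p up to 0.0673. Psmd14 itself was at 0.08 (interval -0.09 to 0.25). The other lid genes were not called, at -0.12 for Psmd3, 0.14 for Psmd6, -0.15 for Psmd8, -0.17 for Psmd11, -0.12 for Psmd12 and 0.06 for Psmd13. The 3 chaperones that assemble the base were all at negative values without a call, at -0.19 for Psmd5, -0.04 for Psmd9 and -0.25 for Psmd10 (limma adjusted p = 0.105, 0.789 and 0.128). Psmc3ip, which is no subunit, was at 0.01.

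Of the activators, Psme3 fell and Psme4 rose. Psme3, a ring-shaped activator that opens the core for proteins without ubiquitin, measured 5318, 4980.1 and 4689.7 in air libraries 1 to 3 and 3677, 3900.3 and 3446 in hyperoxia libraries 1 to 3 (normalised counts). The lowest air library was above every hyperoxia library, with a log2 fold change of -0.44 (SE 0.08, limma adjusted p = 0.00324). Psme4, a large activator of a single chain that is known from DNA repair and the breakdown of histones, measured 1494, 1590.5 and 1632 in air libraries 1 to 3 and 2074, 1674 and 2242 in hyperoxia libraries 1 to 3. All 3 hyperoxia libraries were above the air libraries, but hyperoxia library 2 exceeded air library 3 only narrowly, and the gene showed a log2 fold change of 0.34 (SE 0.11, limma adjusted p = 0.0394). The call of Psme4 was lost under 7 of 16 alternatives, including the omission of any library other than hyperoxia library 2, with adjusted p up to 0.199. Psme1 and Psme2, which interferon induces together with the immunosubunits and which form the cytosolic activator, were not called. Psme1 measured 786, 876 and 712 in air libraries 1 to 3 and 728, 949 and 809 in hyperoxia libraries 1 to 3, and the groups overlapped, with a log2 fold change of 0.06 (interval -0.20 to 0.32). Psme2 measured 389, 399 and 356 in air libraries 1 to 3 and 255, 402 and 336 in hyperoxia libraries 1 to 3, where hyperoxia library 2 was above all air libraries and the other hyperoxia libraries below them, and its log2 fold change was -0.23 (interval -0.57 to 0.12). Psme2b is nearly the same as Psme2, with 99.4% identity over 794 bases, and was at 17.9, 4.07 and 8.21 in air libraries 1 to 3 and 8.84, 9.06 and 8.69 in hyperoxia libraries 1 to 3, so reads of these 2 genes may have been shared between them.

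**Figure D3:**
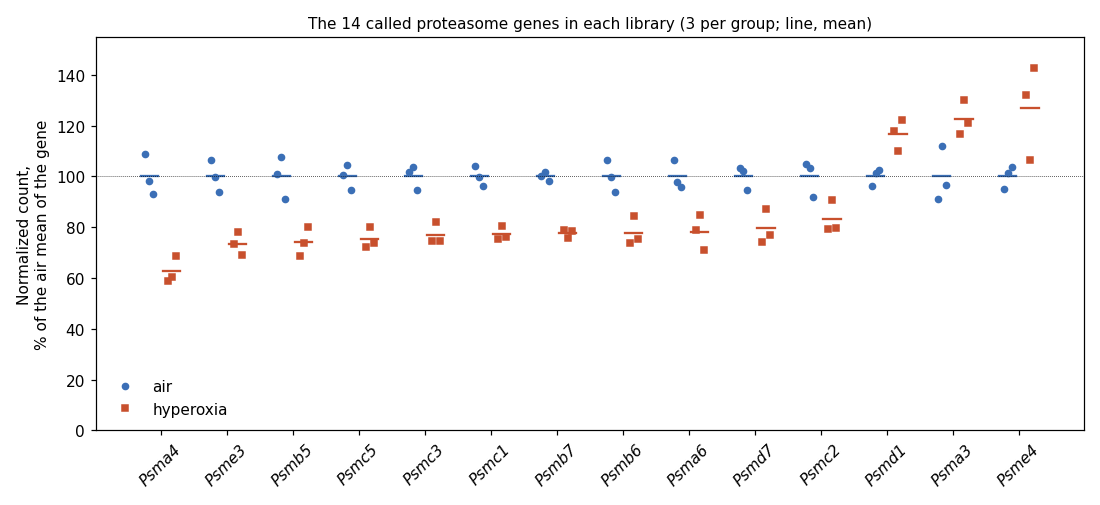
Normalised count of the 14 called proteasome genes in each library, as a percentage of the mean of the gene in air; points are libraries, 3 in each group, and lines are group means. The 11 genes on the left were lower in every hyperoxia library and the 3 on the right were higher, and Psma4 showed the largest difference of means, -37.3% of air.

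Libraries of the same group differed from each other in a like way across many members. Hyperoxia library 2 held the highest value of its group in 32 of the 44 members, beside 40.2% of all genes, and hyperoxia library 1 the lowest in 26, beside 26.9% of all genes. In air, library 2 held the highest value in 26 members, beside 29.6% of all genes, and library 3 the lowest in 29, beside 33.6%. Without hyperoxia library 2, 19 members were called lower and 3 higher, and the 8 gained were Psmc4, Psmd3, Psmd4, Psmd5, Psmd8, Psmd10, Psmd11 and Psme2. Calls rose over all genes too in that setting, to 22.0% called lower and 21.6% called higher. Without air library 1, 7 members were called lower, and Psma3, Psmd1 and Psme4 were no longer called higher. Across all 16 alternatives, Psma4, Psmb7, Psmc1, Psmc3, Psmc5 and Psme3 kept their calls, and no called member was called in the opposite direction.

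Proteasome transcripts are short, and in these data the fold change went with transcript length over all genes. The longest coding transcript of the members had a median of 1586 bases, against 2951 for all genes tested. With all genes split into 5 classes of equal size by length, 22 of the 44 members lay in the shortest class, where the median log2 fold change of all genes was -0.14. The next classes held 12, 7, 2 and 1 members and had medians of -0.10, -0.05, 0.05 and 0.19. With a smooth trend on length and GC content removed from each library, 11 members were called lower and 6 higher, beside 18.8% of all genes called lower and 15.7% called higher in that setting. Of the 11, 9 were called lower before, while Psmb5 and Psmc2 were lost and Psmd5 and Psmd11 gained. Of the 6 that were higher, only Psmd1 was called before, and Psmb3, Psmb10, Psmd6, Psmd13 and Psme1 were gained. Psma4 stayed at -0.61 and Psme3 at -0.41 under that correction, whereas Psmb5 went from -0.43 to -0.23, Psmb6 from -0.36 to -0.17, Psmc3 from -0.38 to -0.21, Psmc5 from -0.41 to -0.26 and Psme4 from 0.34 to 0.10. The part of transcript length in the calls was not tested further.

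**Figure D4:**
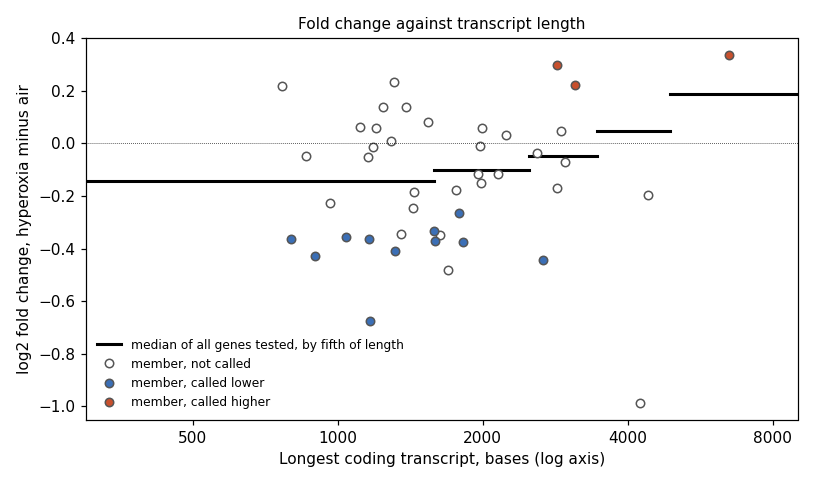
Log2 fold change, hyperoxia minus air, of the 44 tested members against the length of the longest coding transcript (log axis); filled points are called members, and the black lines are the medians of all genes tested within each of 5 length classes. The called genes that fell were mostly short and lay below the median of their class, and Psme4, which rose, is the member of greatest length.

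Some members share sequence with other genes, and their counts are less certain. Psmb5 has a processed pseudogene, Gm3375, that is 98.9% identical over 796 bases and averaged 42.8 normalised counts, beside 1117 for Psmb5 in air, and Psmc1 has Gm9575, 97.1% identical over 728 bases, at 4.29. Psmd11 has A730017L22Rik, 97.9% identical over 1501 bases, at 211. Psmc3 shares 215 exonic bases with Slc39a13 and Psmb9 shares 212 with Tap1, both on the other strand. Tap1 averaged 134.6 normalised counts and Psmb9 only 23.4, so reads of Tap1 could add to those of Psmb9 if strand was not used.

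Proteasome genes with other names changed in both directions as well. Of 13 such genes in the table, 5 fell (38.5%) and 2 rose (15.4%), with a median log2 fold change of -0.16. Over all genes tested, 15.6% were called lower and 14.9% called higher. The largest fall was that of Sem1, a small lid subunit, with 1728, 1736 and 1659 in air libraries 1 to 3 and 1012, 1205 and 1251 in hyperoxia libraries 1 to 3 (normalised counts). Its groups did not overlap, with a log2 fold change of -0.57 (SE 0.09, limma adjusted p = 0.00222). Psmg1, a chaperone that assembles the alpha ring, fell by 0.44 on the log2 scale (SE 0.10, limma adjusted p = 0.0118), and Uchl5, a deubiquitinating enzyme of the regulatory particle, fell by 0.30 (SE 0.08, limma adjusted p = 0.0228). The assembly factors Pomp and Psmg2 were the others that fell, and the deubiquitinating enzyme Usp14 and the inhibitor Psmf1 rose.

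Upstream of the proteasome, genes for ubiquitin changed in both directions. Of 5 genes for ubiquitin and its activating enzymes, Ubb (log2 fold change -0.40, limma adjusted p = 0.00434) fell and Rps27a (0.38, adjusted p = 0.0311) rose. Rps27a encodes ubiquitin fused to a ribosomal protein and has processed copies in the genome that can share reads with it, and Ubb encodes a chain of ubiquitin units. Of 9 genes that deliver ubiquitinated proteins, 2 fell and 2 rose, among them the shuttle Rad23b (-0.37, adjusted p = 0.0077), the ATPase Vcp (0.28, adjusted p = 0.0123) and its cofactor Nploc4 (0.30, adjusted p = 0.00985), with p from limma. Of 10 regulators of proteasome genes, Maff, a small partner of Nrf factors, rose by 1.08 on the log2 scale (SE 0.20, limma adjusted p = 0.00442) and Nfyc fell by 0.27 (SE 0.08, adjusted p = 0.037). Nfe2l1, which drives proteasome genes when the proteasome is inhibited, was at -0.07 (interval -0.23 to 0.08), and Nfe2l2, the oxidant-responsive member of that family, at -0.09 (interval -0.32 to 0.13). The share called was 40% of the ubiquitin genes, 44.4% of the delivery genes and 20% of the regulators, beside 30.5% of all genes tested.

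Genes that act with the immunosubunits in antigen presentation were also measured. Of 8 genes of class I processing and interferon response, 2 fell and 1 rose, so 37.5% were called, beside 30.5% of all genes tested. B2m, the light chain of class I molecules, measured 5948, 5098 and 4572 in air libraries 1 to 3 and 2621, 3352 and 2645 in hyperoxia libraries 1 to 3 (normalised counts), and its groups did not overlap, with a log2 fold change of -0.86 (SE 0.12, limma adjusted p = 0.00136). Irf1, an interferon-responsive factor known to drive immunosubunit genes, fell by 0.72 on the log2 scale (SE 0.13, limma adjusted p = 0.00352), and Erap1, a peptide-trimming protease, rose by 0.46 (SE 0.15, adjusted p = 0.042). Of 8 microglial markers, among the cells in which immunosubunits are known to be expressed, 1 was called higher by limma, and their summed level was 12477 to 12889.8 in air and 12336 to 14566 in hyperoxia.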

How the data were processed

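Strand-specific libraries of polyA-selected RNA were sequenced with paired ends by the authors. FastQC, STAR 2.5.3a, HTSeq and DESeq2 are named in the submitters' processing notes. No source used here gives the genome build, the annotation or the strand setting. The deposited signal is a normalised count, for which the authors divided the reads on each gene by the size factor of the library. Divided by what 1 read was worth in the library, all values (100%) were within 0.01 of a whole number, which recovered the reads. A deposited table with fold changes and p-values of the authors' own comparison was not used, and the sign of its fold changes could not be tied with certainty to the column names, so all directions rest on those names.

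Genes with a mean of at least 10 were tested with limma 3.58.1 in R 4.3.3 on log2(value + 1), where the added 1 understates changes of low genes. The fit included a trend of variance on mean, and p-values were adjusted by Benjamini-Hochberg over all 17778 genes, with a threshold of 0.05. Such p-values measure the spread between these libraries. Alternatives were edgeR 4.0.16 (quasi-likelihood test) and DESeq2 1.42.0 on the recovered reads (5501 and 5611 genes called, against 5425), TMM scaling, quantile normalization, a pseudocount of 0.5 or 5, a minimum mean of 50, no minimum, no trend, a correction for transcript length and GC content (mgcv 1.9.3), and leaving out each library. Ratios of pairs were tested by exact permutation (scipy 1.17.1). The limma fit, and no other step, was tested on simulated data. Positions, lengths and overlaps came from GENCODE M21 (GRCm38), which holds 99.7% of the gene identifiers, 84.8% in the same version, and promoters from RefSeq (GRCm38.p6). Copies of members were sought at 97% identity over 150 bases, and 13 members had a match, some of which are overlapping genes.

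The members, the lists and the alternatives were chosen with earlier results of these data known, and the hippocampal markers were added last. For the ubiquitin list, 1 gene is not reported here. Every tested member is given with its fold change; values in every library are given for Psmb5 to Psmb10, Psme1 to Psme4 and the called members with the smallest p, and for the other lists at most 3 called genes are given with p-values.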

Additional observations from a re-analysis of the deposited data

How the results depend on the processing

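The 11 members called lower were also called lower, and the 3 called higher also higher, by edgeR, by DESeq2, with TMM scaling or quantile normalization, with either other pseudocount and with a mean of at least 50. Of single-gene results over all alternatives, 654 stayed on their side of the threshold, 31 lost a call, 15 gained one and 0 were called in the opposite direction, while 31 changed sign with no call on either side. Without the mean-variance trend 0 members were called higher, with 0 in the core and 0 in the regulatory particle, and without a filter 0 regulatory genes were. With the length and GC correction 6 were called higher, of which 2 in the core and 3 in the regulatory particle, and the median of the regulatory particle was -0.044 and that of the core -0.068. Leaving out each library in turn gave 0 to 3 members called higher (core 0 to 1, regulatory particle 0 to 1) and 7 to 19 called lower (core 3 to 5, regulatory particle 3 to 12). The fewest members called lower came without air library 1 and the most without hyperoxia library 2, and over all genes these settings called 3048 and 7756. The core median ranged from -0.18, without hyperoxia library 2, to -0.013, and its sign held. The log2 ratio of Psmb8 to Psmb5 ranged from -0.24 to 0.30, that of Psmb9 to Psmb6 from -0.23 to 0.28 and that of Psmb10 to Psmb7 from 0.45 to 0.69. Psmb8, Psmb9, Psma8 and Psmb11 had few reads, so moderate changes were not detectable at this depth; they were not tested with a mean of at least 50. The cause of these differences between settings was not tested, beyond the smaller number of libraries. No paired analysis was possible because the columns carry no number that ties an air to a hyperoxia library.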
